A study of Mus musculus with 9 samples.

Results

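The solute carrier transporters were described across RNA of 3 mouse mammary culture groups. Members were the genes whose official symbol has the form Slc, a family number, the letter a and a member number, with a probe set of MOE430A Gene Chips annotated to that symbol alone. They number 238 of 12393 genes that the chip names in this way, with 378 of the 22626 probe sets tested, and belong to 48 families. Where a gene had several probe sets (91 of the 238, with up to 8 each), that of the highest mean over the 9 arrays was taken. Tumorspheres (TMS), non-adherent spheres, were grown from independent mammary tumors of MMTV-Neu [N2O2] mice, in which the MMTV promoter directs the Her2/Neu transgene to mammary epithelium. The diffMMS cultures were dispersed mammosphere cells plated on rat-tail collagen and kept in medium with serum for 7 days, and mammospheres (MMS) came from the mammary glands of virgin female FVB/N mice 6 to 8 weeks old. Tumorspheres and mammospheres shared the stem cell medium and 3 to 5 passages. In all, each group holds 3 arrays with 1 preparation each. Arrays are named by code (1099A, 1100A and 1101A for tumorspheres, 861A, 862A and 863A for diffMMS cultures, 858A, 859A and 860A for mammospheres). The tumorsphere codes stand apart from the consecutive codes of the other 6 arrays, and no label says whether they were processed together, so that any difference in processing and tumor origin cannot be told apart.

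Solute carriers are membrane proteins that move sugars, amino acids, ions, metals, nucleosides, vitamins and organic ions down or against a gradient, and the mitochondrial carrier family does the same across the inner mitochondrial membrane. Uptake of glucose and glutamine and release of lactate by these proteins feed growing cells, and the lactating mammary gland uses the same families to draw amino acids, phosphate, zinc and iodide from blood into milk. Several work only with a partner: the light chains of family 7 pair with the heavy chain Slc3a2, and the lactate transporters of family 16 pair with basigin or embigin.

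Values are log2 intensities after quantile normalization, a fold change is a difference of group means on that scale, and a gene was called at a limma p value under 0.05 after Benjamini-Hochberg adjustment over all probe sets. No detection call was available for these values, and 49 of the 238 members had a mean in the lowest 25% of all probe sets, where a difference is hard to measure. The median SD of a member within a group was 0.0932 in tumorspheres, 0.0869 in diffMMS cultures and 0.0643 in mammospheres. Levels of different probe sets cannot be set against each other, and in bulk RNA fewer cells of a type and less RNA per cell cannot be told apart.

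The labelled cell types were checked against defining markers. Tumorspheres had higher levels of 8 of 10 luminal epithelial markers against mammospheres and of 8 against diffMMS cultures. Between diffMMS cultures and mammospheres, 2 of the 10 were called higher in diffMMS cultures and 0 lower, with a median fold change of -0.06. The summed level of the 10 was 12.3 to 12.9 in tumorspheres, 9.68 to 9.99 in diffMMS cultures and 9.58 to 9.74 in mammospheres. The luminal keratin Krt18 had 9.79, 10.15 and 10.67 in the tumorspheres, 5.29, 5.54 and 5.66 in the diffMMS cultures and 5.58, 5.94 and 6.27 in the mammospheres. Of 9 basal or myoepithelial markers, 0 were called between tumorspheres and mammospheres by limma (2, Krt14 and Tagln, were higher at an unadjusted p under 0.05). Against diffMMS cultures 1 was higher and 6 were lower in tumorspheres, and 6 were higher in diffMMS cultures than in mammospheres. Their summed level was 10.04 to 10.1 in tumorspheres, 12.0 to 12.5 in diffMMS cultures and 9.93 to 10.02 in mammospheres. The largest differences of diffMMS cultures over mammospheres were those of the contractile genes Tagln (3.73, adjusted p = 2.1e-09), Acta2 (2.60, adjusted p = 1.6e-07) and Mylk (1.98, adjusted p = 1.3e-04). The basal keratin Krt14, the 1 marker of this list that was higher in tumorspheres than in diffMMS cultures (1.23, adjusted p = 0.0348), had 5.83, 6.56 and 8.03 in the tumorspheres, 5.59, 5.61 and 5.53 in the diffMMS cultures and 5.59, 5.55 and 5.60 in the mammospheres. Of 9 fibroblast markers, 1 was higher and 2 were lower in tumorspheres than in mammospheres, 2 were higher and 4 lower in tumorspheres than in diffMMS cultures, and 4 were higher and 3 lower in diffMMS cultures than in mammospheres. The summed level of the 9 was 14.77 to 15.04 in tumorspheres, 15.14 to 15.16 in diffMMS cultures and 14.97 to 15.05 in mammospheres. The collagen Col1a1 was higher in diffMMS cultures than in mammospheres (0.89, adjusted p = 1.3e-05), and the matrix protein lumican, Lum, was lower (-1.82, adjusted p = 1.4e-08). No detection call tells whether a marker was absent from a group. Of 10 macrophage markers, tumorspheres had 6 higher than mammospheres and 3 higher than diffMMS cultures, and 5 were higher and 1 lower in diffMMS cultures than in mammospheres. Their summed level was 10.7 to 11.4 in tumorspheres, 9.96 to 10.6 in diffMMS cultures and 9.75 to 9.88 in mammospheres. Of 6 endothelial markers, 4 were lower in tumorspheres than in mammospheres and 3 than in diffMMS cultures. Of 5 adipocyte markers, 1, the lipoprotein lipase Lpl, was higher in diffMMS cultures than in mammospheres (2.51, adjusted p = 9.2e-09). The median fold change of the 5 in that comparison was 0.00726. In tumorspheres 2 of them, Lpl and Pparg, were lower than in mammospheres, and the same 2 were lower than in diffMMS cultures. The summed level of the 5 was 9.14 to 9.27 in tumorspheres, 12.04 to 12.23 in diffMMS cultures and 9.70 to 10.02 in mammospheres. For these marker counts, the shares of all genes called in each comparison are those given with the member counts below. The part of these cell type markers in the transporter results was not tested.

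Between tumorspheres and mammospheres, 16 solute carriers were higher (6.72% of the members, against 6.21% of all genes) and 9 were lower (3.78%, against 7.11% of all genes). The median fold change was 0.03 over the members and 0.00229 over all genes. Against diffMMS cultures, 24 members were higher in tumorspheres (10.1%, against 12.3% of all genes) and 36 were lower (15.1%, against 12.7%), with a median of -0.06 over the members and -0.03 over all genes. In diffMMS cultures against mammospheres, 49 were higher (20.6%, against 18.0%) and 22 were lower (9.24%, against 16.1%), with medians of 0.09 and 0.05. The shares of higher members lay near those of all genes in each comparison, and the shares of lower members in the comparisons with mammospheres lay below them. Median centring turned the balance between tumorspheres and mammospheres round, and the share of lower members stayed below that of all genes under it and under array weights. With arrays centred on their median 11 members were higher (4.62%, against 4.91% of all genes) and 15 were lower (6.30%, against 10.4%), and with array weights 33 were higher (13.9%, against 11.9%) and 19 lower (7.98%, against 12.8%). The fold changes ran from -1.02 to 0.99 for tumorspheres against mammospheres, from -1.04 to 3.00 for tumorspheres against diffMMS cultures and from -2.95 to 1.28 for diffMMS cultures against mammospheres, and 213, 178 and 167 members were not called in these comparisons. Large differences were few among the members. A fold change of at least 1 on the log2 scale was reached by 1 member between tumorspheres and mammospheres (Slc1a1) and by 5 between tumorspheres and diffMMS cultures (Slc20a1, Slc2a3, Slc6a8, Slc12a2 and Slc44a2). It was reached by 5 between diffMMS cultures and mammospheres (Slc20a1, Slc1a1, Slc25a5, Slc16a3 and Slc44a2). Of all 12393 genes, 128, 419 and 468 reached it in these 3 comparisons, in the same order. Each of these is a larger share than that of the members, and the differences in share were not tested. Counts between tumorspheres and mammospheres also depended on single arrays. Without array 859A 9 members were higher, and without 860A 10. In the other direction 5 were lower without 1099A, 858A, 859A or 860A, each left out alone, against 14 without 1101A. Of the members higher in diffMMS cultures than in mammospheres, 31 were called without 859A and 29 without 860A.

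**Figure D1:**
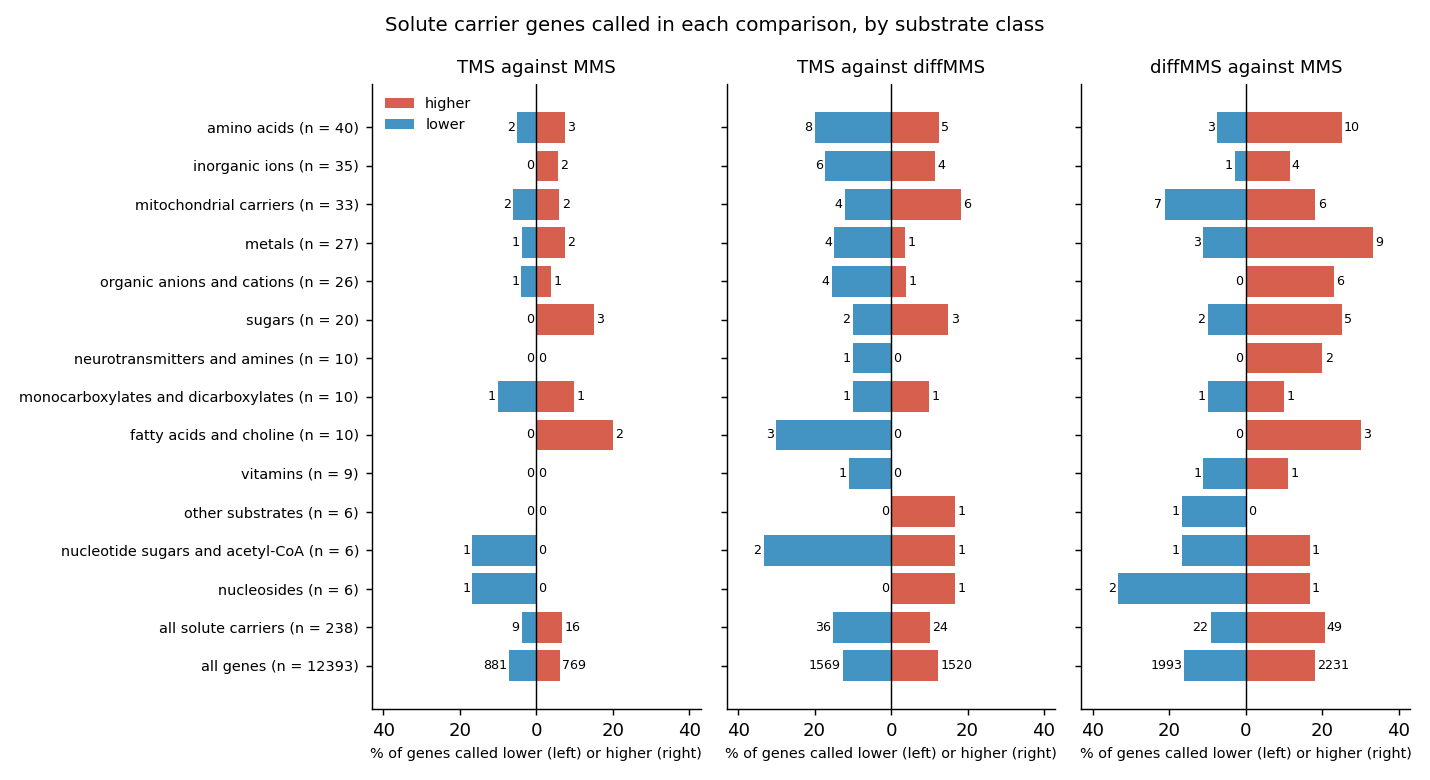
Percentage of the genes of each substrate class called higher (bars to the right) or lower (bars to the left) in tumorspheres against mammospheres, tumorspheres against diffMMS cultures and diffMMS cultures against mammospheres, with the number of genes beside each bar and all solute carriers and all genes at the bottom. By number, amino acid (10 of 40, 25%) and metal (9 of 27, 33.3%) transporters hold the most calls higher in diffMMS cultures than in mammospheres, against 18.0% of all genes. By share, fatty acid and choline transporters (3 of 10, 30%) lie above amino acid transporters, and sugar transporters (5 of 20, 25%) equal them. The mitochondrial carriers are split between 6 higher (18.2%) and 7 lower (21.2%, against 16.1% of all genes).

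The largest difference of any member was that of Slc20a1, the sodium-dependent phosphate transporter PiT-1. Its log2 intensities were 10.38, 10.77 and 10.79 in the tumorspheres, 7.65, 7.54 and 7.75 in the diffMMS cultures and 10.64, 10.41 and 10.74 in the mammospheres. All 3 diffMMS arrays lay far below the other 6, whereas tumorspheres and mammospheres overlapped. The level in tumorspheres was 8 times that in diffMMS cultures (log2 fold change 3.00, standard error 0.121, adjusted p = 7.4e-09), and diffMMS cultures lay below mammospheres by nearly the same amount (-2.95, adjusted p = 9.2e-09). Between tumorspheres and mammospheres the fold change was 0.05 (adjusted p = 0.848). A second, dimmer Slc20a1 probe set gave 2.71, adjusted p = 7.4e-05, for tumorspheres against diffMMS cultures and -1.25, adjusted p = 0.0111, for diffMMS cultures against mammospheres, but was also called higher in tumorspheres than in mammospheres (1.45, adjusted p = 0.0109).

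Promoter sequences are given for 4 genes, chosen after their values and the motif matches were seen. Slc20a1 is shown for its size of difference. The glucose transporter Slc2a1 and the lactate transporter Slc16a3 are shown as known targets of the hypoxia-inducible factor HIF-1, and the neutral amino acid transporter Slc1a4 because amino acid starvation is known to induce genes of its kind through ATF4. Each run holds the 250 bases before the RefSeq start (GRCm38.p6) and 10 bases from it on, 5′ to 3′ on the gene's strand. Capitals mark matches, on either strand, to ACGTG (the core of the hypoxia response element), to the E-box CACGTG, which contains ACGTG on both strands, and to TGATGNAA (the C/EBP-ATF element).
Slc20a1, chr2:129198523-129198782, plus strand, the first of 2 starts: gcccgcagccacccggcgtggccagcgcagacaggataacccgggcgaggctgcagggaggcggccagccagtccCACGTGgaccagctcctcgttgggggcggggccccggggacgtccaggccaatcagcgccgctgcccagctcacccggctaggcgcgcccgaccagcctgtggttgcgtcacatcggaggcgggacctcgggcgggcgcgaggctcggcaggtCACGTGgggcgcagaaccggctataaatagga
Slc2a1, chr4:119108495-119108754, plus strand: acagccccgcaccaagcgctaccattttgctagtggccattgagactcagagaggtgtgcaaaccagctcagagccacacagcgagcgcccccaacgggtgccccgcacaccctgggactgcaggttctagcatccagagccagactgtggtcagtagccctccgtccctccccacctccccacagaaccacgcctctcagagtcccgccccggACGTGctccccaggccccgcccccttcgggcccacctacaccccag
Slc16a3, chr11:120948817-120949076, plus strand: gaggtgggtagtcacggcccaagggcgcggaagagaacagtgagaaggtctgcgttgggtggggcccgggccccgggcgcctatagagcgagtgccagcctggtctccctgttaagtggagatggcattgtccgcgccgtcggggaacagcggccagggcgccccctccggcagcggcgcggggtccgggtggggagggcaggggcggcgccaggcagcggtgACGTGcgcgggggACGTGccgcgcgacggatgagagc
Slc1a4, chr11:20332704-20332963, minus strand: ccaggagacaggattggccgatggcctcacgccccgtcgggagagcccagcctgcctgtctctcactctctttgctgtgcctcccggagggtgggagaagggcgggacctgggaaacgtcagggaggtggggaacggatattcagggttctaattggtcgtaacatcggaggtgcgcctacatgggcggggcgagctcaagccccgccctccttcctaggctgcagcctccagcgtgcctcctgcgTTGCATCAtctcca
The Slc20a1 window holds 2 E-boxes, the Slc2a1 window 1 ACGTG at -36, the Slc16a3 window 2 ACGTG between -27 and -14 and the Slc1a4 window 1 C/EBP-ATF element across the start. In the 300-base windows of the RefSeq table, ACGTG stood in 58 of the 183 solute carriers it lists (31.7%, against 21.8% of all genes), CACGTG in 28 (15.3%, against 8.09%) and TGATGNAA in 7 (3.83%, against 4.51%). Here all genes are the 27025 of that table and not those of the chip, an unlike set, and the differences in share were not tested. Further windows were searched and are not printed. The second Slc20a1 start and Slc1a1 held 0 matches, as did Slc38a2, a gene that differed in the same directions as Slc1a4. Slc7a11 held 2 C/EBP-ATF elements and was not called in any of the 3 comparisons, but its probe set was dim, where a difference is hard to measure. Between diffMMS cultures and mammospheres Slc7a11 was called as deposited or on dropping 862A, at adjusted p values of 0.0368 to 0.0461. Each of the printed genes had both a match and a call in at least 1 comparison. As those genes were chosen after values and matches were seen, these few windows cannot decide whether a match and a call go together. These letters describe the windows and say nothing of binding in the cultures.

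RNA of the basal glucose transporter GLUT1 was higher in tumorspheres than in either other group. Slc2a1, its gene, had 8.53, 8.63 and 8.62 in the tumorspheres, 8.24, 8.12 and 8.04 in the diffMMS cultures and 7.97, 7.95 and 7.99 in the mammospheres. The tumorsphere arrays did not overlap the others, with fold changes of 0.62 against mammospheres (standard error 0.074, adjusted p = 2.4e-04) and 0.46 against diffMMS cultures (adjusted p = 7.8e-04). The diffMMS cultures and mammospheres differed by 0.17 (adjusted p = 0.106). Both other Slc2a1 probe sets, which are dimmer, were not called, with 0.49, adjusted p = 0.0564, and 0.29, adjusted p = 0.129, for tumorspheres against mammospheres. Slc2a3, the high-affinity glucose transporter GLUT3, had 8.16, 8.64 and 7.78 in the tumorspheres, 6.90, 6.91 and 6.78 in the diffMMS cultures and 7.75, 7.68 and 7.72 in the mammospheres. It was 2.52-fold higher in tumorspheres than in diffMMS cultures (1.33, adjusted p = 7.8e-05) and lower in diffMMS cultures than in mammospheres (-0.86, adjusted p = 0.00164). The tumorsphere arrays spread over the widest range, and their difference from mammospheres was not called (0.48, adjusted p = 0.0696). It was called on dropping 1101A or with array weights, at adjusted p values of 0.00125 to 0.00221, and without 1101A the fold change was 0.68.

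Of the 20 sugar transporters, 3 were higher (15%, against 6.21% of all genes) and 0 lower (against 7.11% of all genes) in tumorspheres than in mammospheres by limma, with 1 lower at an unadjusted p under 0.05. In tumorspheres 3 were higher (15%, against 12.3%) and 2 lower (10%, against 12.7%) than in diffMMS cultures, and 5 were higher (25%, against 18.0%) and 2 lower (10%, against 16.1%) in diffMMS cultures than in mammospheres. Slc5a3, the sodium-coupled importer of the osmolyte myo-inositol, was higher in tumorspheres than in mammospheres (0.52, adjusted p = 0.0165), as was Slc45a3 of the proton-coupled sugar transporter family (0.35, adjusted p = 0.0262). The call of Slc5a3 was lost on dropping 1100A, 859A or 860A, at adjusted p values of 0.0565 to 0.0691. That of Slc45a3 was lost on dropping 1099A, 1100A, 859A or 860A, at adjusted p values of 0.0594 to 0.12. Slc37a2, a sugar phosphate exchanger of the endoplasmic reticulum, had the pattern of Slc2a3, higher in tumorspheres than in diffMMS cultures (0.50, adjusted p = 0.00596) and lower in diffMMS cultures than in mammospheres (-0.61, adjusted p = 0.00134). In the opposite direction, Slc45a2, known from melanosomes, was lower in tumorspheres than in diffMMS cultures (-0.35) and higher in diffMMS cultures than in mammospheres (0.36). Its second probe set was called in neither, with -0.09, adjusted p = 0.397, and the opposite sign of -0.11, adjusted p = 0.281. Slc45a3 was also higher in diffMMS cultures than in mammospheres (0.51, adjusted p = 0.00129). The sodium-glucose cotransporter Slc5a2 (SGLT2) was higher in diffMMS cultures than in mammospheres (0.42, adjusted p = 0.0138). Slc2a10 was lower in tumorspheres than in diffMMS cultures (-0.26, adjusted p = 0.029). The call of Slc5a2 was lost on dropping 861A or 859A, at adjusted p values of 0.0509 to 0.0665, and that of Slc2a10 on dropping 1100A, 862A or 863A or in a fit of the 2 groups alone, at adjusted p values of 0.0693 to 0.117.

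The lactate transporters Slc16a1 and Slc16a3 moved in opposite directions in diffMMS cultures against mammospheres. Slc16a1 (MCT1), which carries lactate and pyruvate in both directions, had 6.09, 5.97 and 6.15 in the tumorspheres, 6.28, 6.64 and 6.62 in the diffMMS cultures and 6.71, 7.02 and 6.87 in the mammospheres. Every tumorsphere array lay below every mammosphere array, a fold change of -0.80 (standard error 0.111, adjusted p = 6.5e-04). The diffMMS level lay between them, with -0.45, adjusted p = 0.0117, for tumorspheres against diffMMS cultures and -0.35, adjusted p = 0.0286, for diffMMS cultures against mammospheres. The call between tumorspheres and diffMMS cultures was lost on dropping 862A or 863A, at adjusted p values of 0.0505 to 0.0516. That between diffMMS cultures and mammospheres was lost on dropping 861A, 859A or 860A, at adjusted p values of 0.0784 to 0.124.

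Slc16a3 (MCT4), the low-affinity exporter of lactate in glycolytic cells, had 7.81, 8.10 and 6.77 in the tumorspheres, 8.11, 8.34 and 8.21 in the diffMMS cultures and 7.15, 6.86 and 6.81 in the mammospheres. It was 2.43-fold higher in diffMMS cultures than in mammospheres (log2 fold change 1.28, standard error 0.253, adjusted p = 0.00233). Among tumorspheres, arrays 1099A and 1100A lay near the diffMMS level and 1101A lay at the level of mammospheres. Neither difference of the tumorspheres was called (0.62, adjusted p = 0.133, against mammospheres and -0.66, adjusted p = 0.0807, against diffMMS cultures). The difference from mammospheres was called on dropping 1101A or with array weights, at adjusted p values of 2.1e-04 to 0.0023, with a fold change of 1.01 without 1101A. That from diffMMS cultures was called on dropping 1100A, at an adjusted p of 0.0174, with -0.93. Slc5a8, a sodium-coupled importer of short monocarboxylates, was higher in tumorspheres than in mammospheres (0.48, adjusted p = 0.00115) and diffMMS cultures (0.54, adjusted p = 1.9e-04), with a mean in the lowest 25% of probe sets.

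**Figure D2:**
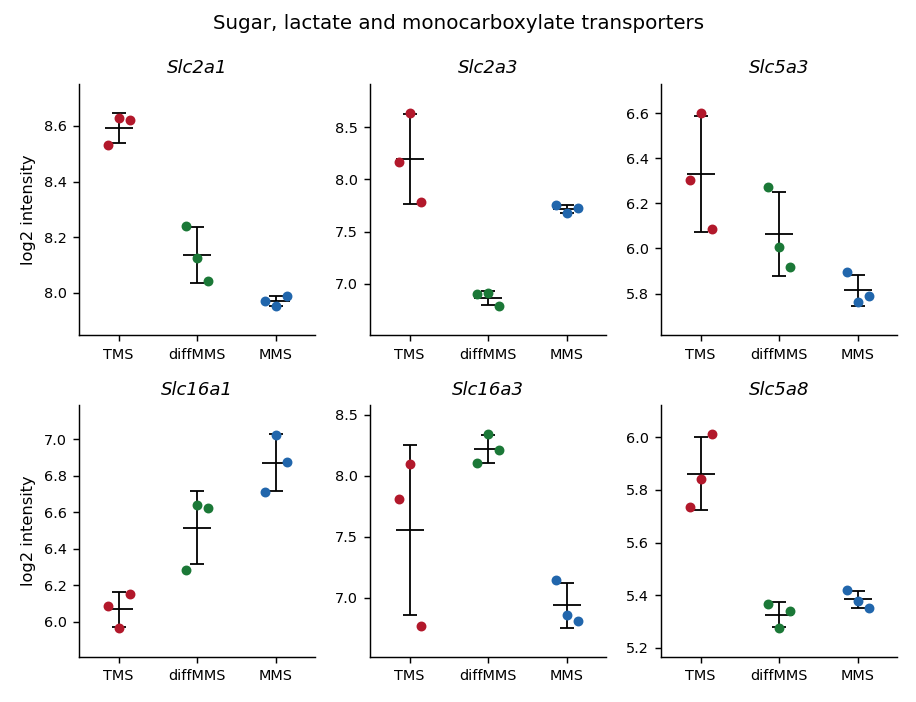
Log2 intensity (vertical axes, each panel with its own scale) of sugar and monocarboxylate transporters in tumorspheres (TMS), diffMMS cultures and mammospheres (MMS), with a point for each of the 3 arrays and a bar for the mean ± SD. Slc2a1 is highest in the tumorspheres, Slc2a3 is lowest in the diffMMS cultures at 6.78 to 6.91, and Slc16a3 has 1 tumorsphere array at 6.77 beside 7.81 and 8.10.

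Partners and regulators of sugar and lactate transport, from lists of genes outside the family, were measured in the same fit. Over all genes, 6.21% were called higher and 7.11% lower in tumorspheres than in mammospheres. The shares were 12.3% and 12.7% against diffMMS cultures, and 18.0% and 16.1% in diffMMS cultures against mammospheres. Of 6 partners and anchors, 2 were higher in tumorspheres than in mammospheres, 1 was higher and 1 lower than in diffMMS cultures, and 4 were higher in diffMMS cultures than in mammospheres. Emb, embigin, which escorts family 16 transporters to the membrane, had 8.40, 8.87 and 8.72 in the tumorspheres, 10.80, 10.70 and 10.96 in the diffMMS cultures and 8.33, 8.15 and 8.42 in the mammospheres. The diffMMS arrays lay far above all others (2.52, adjusted p = 2.9e-08, against mammospheres). Bsg, basigin, the partner of Slc16a1 and Slc16a3, was higher in diffMMS cultures (0.51, adjusted p = 1.7e-04) and in tumorspheres (0.35, adjusted p = 0.00602) than in mammospheres. Of 8 regulators and first enzymes of sugar use, 4 were higher in diffMMS cultures than in mammospheres, among them Txnip, an arrestin-like protein that lowers glucose uptake (1.94, adjusted p = 4.7e-08), and the hypoxia-inducible factor subunit Hif1a (1.12, adjusted p = 4.7e-04). In tumorspheres against mammospheres 2 of these 8 were higher and 1 lower, and against diffMMS cultures 2 were higher and 2 lower, with Txnip at -1.70 and Hif1a at -1.81. Hif1a was also the 1 that was lower in tumorspheres than in mammospheres (-0.69, adjusted p = 0.0216).

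Among the 40 transporters of amino acids and peptides, 10 were higher (25%, against 18.0% of all genes) and 3 lower (7.50%, against 16.1%) in diffMMS cultures than in mammospheres, with a class median of 0.11. In tumorspheres 5 were higher (12.5%, against 12.3%) and 8 lower (20%, against 12.7%) than in diffMMS cultures, with a median of -0.06, and 3 were higher (7.50%, against 6.21%) and 2 lower (5.00%, against 7.11%) than in mammospheres. The neutral amino acid transporters Slc1a4, Slc1a5 and Slc38a2 were all highest in diffMMS cultures. Slc1a4 (ASCT1), an exchanger of alanine, serine and cysteine, had 7.18, 7.10 and 7.18 in the tumorspheres, 7.79, 8.09 and 7.86 in the diffMMS cultures and 7.01, 7.12 and 7.02 in the mammospheres. Its difference was 0.86 between diffMMS cultures and mammospheres (standard error 0.0871, adjusted p = 1.5e-05) and -0.76 between tumorspheres and diffMMS cultures (adjusted p = 5.3e-05), and both other probe sets of the gene were called the same way in both comparisons.

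Slc1a5 (ASCT2), the main glutamine exchanger of many growing cells, had 7.62, 7.56 and 7.67 in the tumorspheres, 8.33, 8.33 and 8.35 in the diffMMS cultures and 7.84, 7.81 and 7.82 in the mammospheres. The arrays of a group agreed closely, and diffMMS cultures stood above mammospheres by 0.51 (adjusted p = 1.1e-04) and tumorspheres below diffMMS cultures (-0.72, adjusted p = 8.8e-06). Tumorspheres lay below mammospheres in every array, but the difference did not pass (-0.21, adjusted p = 0.0595). It was called on dropping 1101A, as deposited, after median centring, without the intensity trend or with array weights, at adjusted p values of 0.00862 to 0.046. Slc38a2 (SNAT2), a sodium-coupled importer of small neutral amino acids, had 8.11, 8.48 and 8.46 in the tumorspheres, 9.15, 9.31 and 9.39 in the diffMMS cultures and 8.65, 8.56 and 8.75 in the mammospheres. It was higher in diffMMS cultures than in mammospheres (0.63, adjusted p = 8.3e-04) and lower in tumorspheres than in diffMMS cultures (-0.93, adjusted p = 5.2e-05). With arrays centred on their median instead of quantile normalization the first of these was 0.41 and still called. The related Slc38a1 (0.47) and Slc38a3 (0.48), named here after their values were seen, were higher in diffMMS cultures than in mammospheres too.

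Slc1a1 and Slc6a6 had the reverse pattern. Slc1a1 (EAAT3), which takes up glutamate and cysteine, had 7.18, 7.00 and 6.74 in the tumorspheres, 6.26, 6.09 and 6.14 in the diffMMS cultures and 7.98, 8.09 and 7.92 in the mammospheres. The groups did not overlap, in the order mammospheres, tumorspheres and diffMMS cultures from high to low. It was 3.55-fold lower in diffMMS cultures than in mammospheres (-1.83, adjusted p = 1.5e-07), lower in tumorspheres than in mammospheres (-1.02, adjusted p = 9.3e-05) and higher in tumorspheres than in diffMMS cultures (0.81, adjusted p = 1.6e-04). A second of its 3 probe sets was called the same way in all 3 comparisons, and the third in the comparisons with diffMMS cultures alone. For Slc6a6, the taurine transporter, the brightest probe set had 7.71, 7.89 and 7.78 in the tumorspheres, 7.14, 7.20 and 7.25 in the diffMMS cultures and 8.24, 8.13 and 7.86 in the mammospheres. By it diffMMS cultures were lower than mammospheres (-0.88, adjusted p = 3.6e-05) and tumorspheres were higher than diffMMS cultures (0.60, adjusted p = 8.7e-04). Its other probe sets disagreed: 1 was called higher in diffMMS cultures than in mammospheres (0.34, adjusted p = 0.0364). Both were called higher in tumorspheres than in mammospheres (0.45, adjusted p = 0.0126, and 0.65, adjusted p = 0.00274), where the brightest gave -0.28, adjusted p = 0.081. By the brightest, tumorspheres were called lower than mammospheres on dropping 860A or after median centring, at adjusted p values of 0.023 to 0.0348.

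Slc15a2 (PEPT2), a proton-coupled importer of di- and tripeptides, was the member with the highest fold change in tumorspheres against mammospheres. It had 7.37, 7.35 and 7.39 in the tumorspheres, 6.53, 6.45 and 6.38 in the diffMMS cultures and 6.45, 6.37 and 6.32 in the mammospheres. The tumorsphere arrays lay close together and above all others, by 0.99 against mammospheres (standard error 0.0721, adjusted p = 5.7e-06) and 0.92 against diffMMS cultures (adjusted p = 2.2e-06), and its second probe set was called the same way.

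**Figure D3:**
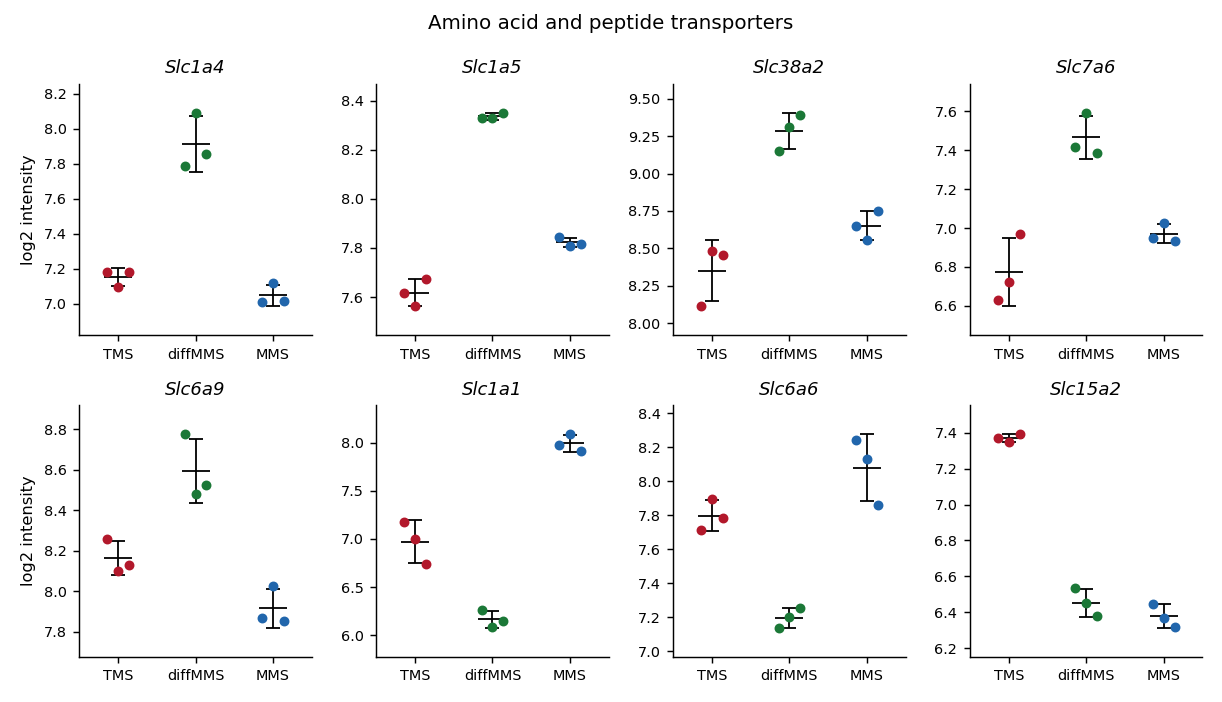
Log2 intensity (vertical axes, each panel with its own scale) of amino acid and peptide transporters in tumorspheres (TMS), diffMMS cultures and mammospheres (MMS), with a point for each of the 3 arrays and a bar for the mean ± SD. Slc1a4, Slc1a5, Slc38a2, Slc7a6 and Slc6a9 are highest in the diffMMS cultures, Slc1a1 and Slc6a6 are lowest there, and Slc15a2 is high in the tumorspheres alone.

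Among the heterodimeric transporters, the heavy chain Slc3a2 had 9.91, 9.76 and 9.93 in the tumorspheres, 9.86, 9.78 and 9.71 in the diffMMS cultures and 9.56, 9.67 and 9.58 in the mammospheres. Tumorspheres were called higher than mammospheres (0.26, adjusted p = 0.04), a small difference. It was lost on dropping any array but 1100A and 861A, as deposited, after median centring or in a fit of the 2 groups alone, at adjusted p values of 0.0525 to 0.772. Its light chain Slc7a5 (LAT1), which brings in large neutral amino acids, had 9.43, 9.15 and 9.31 in the tumorspheres, 8.96, 9.01 and 9.13 in the diffMMS cultures and 9.17, 9.20 and 8.92 in the mammospheres. It was not called in any of the 3 comparisons. Tumorspheres and mammospheres overlapped (0.20, adjusted p = 0.209), whereas every tumorsphere array lay above every diffMMS array (adjusted p = 0.0685). The latter difference was called as deposited or on dropping 1100A, at adjusted p values of 0.042 to 0.0448. That between diffMMS cultures and mammospheres (adjusted p = 0.643) was called after median centring, at an adjusted p of 0.0449. Slc7a11 (xCT), the cystine importer, was in the lowest 25% of probe sets and not called, with 0.04, adjusted p = 0.782, for tumorspheres against mammospheres. Its difference between diffMMS cultures and mammospheres (adjusted p = 0.159) was called as deposited or on dropping 862A, at adjusted p values of 0.0368 to 0.0461. The light chain Slc7a6, which exchanges cationic for neutral amino acids, was lower in tumorspheres than in diffMMS cultures (-0.69, adjusted p = 2.4e-04) and higher in diffMMS cultures than in mammospheres (0.50, adjusted p = 0.00204). Its close relative Slc7a7, named after its values were seen, went the other way, with 0.73, adjusted p = 8.4e-05, and -0.69, adjusted p = 1.1e-04. The glycine transporter Slc6a9 (GlyT1) was higher in diffMMS cultures than in mammospheres (0.68, adjusted p = 1.8e-04) and lower in tumorspheres than in diffMMS cultures (-0.43, adjusted p = 0.00532). The light chain Slc7a8, in the lowest 25% of probe sets, was lower in tumorspheres than in mammospheres (-0.24, adjusted p = 0.0389). This call was lost on dropping any array but 1100A, 1101A and 861A, as deposited, in a fit of the 2 groups alone or without the intensity trend, at adjusted p values of 0.0512 to 0.129, and without 1099A its fold change was -0.16.

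Of the 35 transporters of inorganic ions, 2 were higher (5.71%, against 6.21% of all genes) and 0 lower (against 7.11%) in tumorspheres than in mammospheres by limma, with 1 lower at an unadjusted p under 0.05, and both that were higher belong to the cation-chloride family. Slc12a2 (NKCC1), which imports sodium, potassium and chloride and raises cell volume, had 7.84, 7.47 and 8.26 in the tumorspheres, 6.73, 6.81 and 6.90 in the diffMMS cultures and 7.10, 7.18 and 7.18 in the mammospheres. The tumorsphere arrays spread over the widest range but all lay above the others, by 0.70 against mammospheres (standard error 0.151, adjusted p = 0.0088) and 1.05 against diffMMS cultures (adjusted p = 3.2e-04). Both other probe sets were called the same way. Slc12a7 (KCC4), which exports potassium and chloride, was higher in tumorspheres than in mammospheres (0.37, adjusted p = 0.0106) and diffMMS cultures (0.33, adjusted p = 0.0114), and the first call was lost on dropping 859A, at an adjusted p of 0.0581.

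In tumorspheres against diffMMS cultures, 4 ion transporters were higher (11.4%, against 12.3% of all genes) and 6 lower (17.1%, against 12.7%). In diffMMS cultures against mammospheres 4 were higher (11.4%, against 18.0%) and 1, Slc20a1, was lower (2.86%, against 16.1%). Slc24a3, a potassium-dependent sodium-calcium exchanger, had 6.83, 6.75 and 6.89 in the tumorspheres, 7.71, 7.35 and 7.42 in the diffMMS cultures and 6.80, 6.72 and 6.74 in the mammospheres. The diffMMS arrays stood above the rest, by 0.74 over mammospheres (adjusted p = 9.2e-05), and tumorspheres lay below them (-0.67, adjusted p = 2.5e-04). Slc4a3, a chloride-bicarbonate exchanger, behaved alike with 0.40, adjusted p = 0.00293, and -0.45, adjusted p = 0.00156. Smaller differences of diffMMS cultures over mammospheres were found for the sodium bicarbonate cotransporter Slc4a4 (0.24, adjusted p = 0.0278) and for Slc5a5 (NIS), which takes up iodide in thyroid and lactating mammary gland (0.31, adjusted p = 0.0204). The call of Slc4a4 was lost on dropping 861A, 862A, 859A or 860A, at adjusted p values of 0.0691 to 0.115. That of Slc5a5 was lost on dropping 861A, 858A, 859A or 860A or after median centring, at adjusted p values of 0.0517 to 0.0669. Slc34a2 (NaPi-IIb), the phosphate transporter of lactating mammary epithelium, was not called, with 0.29, adjusted p = 0.197, for tumorspheres against mammospheres and 0.25, adjusted p = 0.179, for diffMMS cultures against mammospheres. The first was called on dropping 1101A or with array weights, at adjusted p values of 0.0152 to 0.0401, with a fold change of 0.45 without 1101A. The other was called in a fit of the 2 groups alone, at an adjusted p of 0.0294.

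Of the sodium pump subunits and the kinases that regulate cation-chloride transport, 11 were measured. In tumorspheres 3 were higher (against 6.21% of all genes) and 1 lower (against 7.11%) than in mammospheres. Against diffMMS cultures 6 were higher (against 12.3%) and 3 lower (against 12.7%). In diffMMS cultures 3 were higher (against 18.0%) and 4 lower (against 16.1%) than in mammospheres. Stk39 (SPAK), the kinase that activates Slc12a2, was higher in tumorspheres than in mammospheres (0.43, adjusted p = 0.00181) and diffMMS cultures (0.58, adjusted p = 8.9e-05). Fxyd3, a small partner of the sodium pump found in epithelia, had 9.89, 9.71 and 10.25 in the tumorspheres, 6.91, 7.01 and 7.11 in the diffMMS cultures and 6.76, 6.89 and 6.98 in the mammospheres. This was a difference of 3.07 between tumorspheres and mammospheres (adjusted p = 4.4e-08). The luminal markers given above were high in the same arrays.

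**Figure D4:**
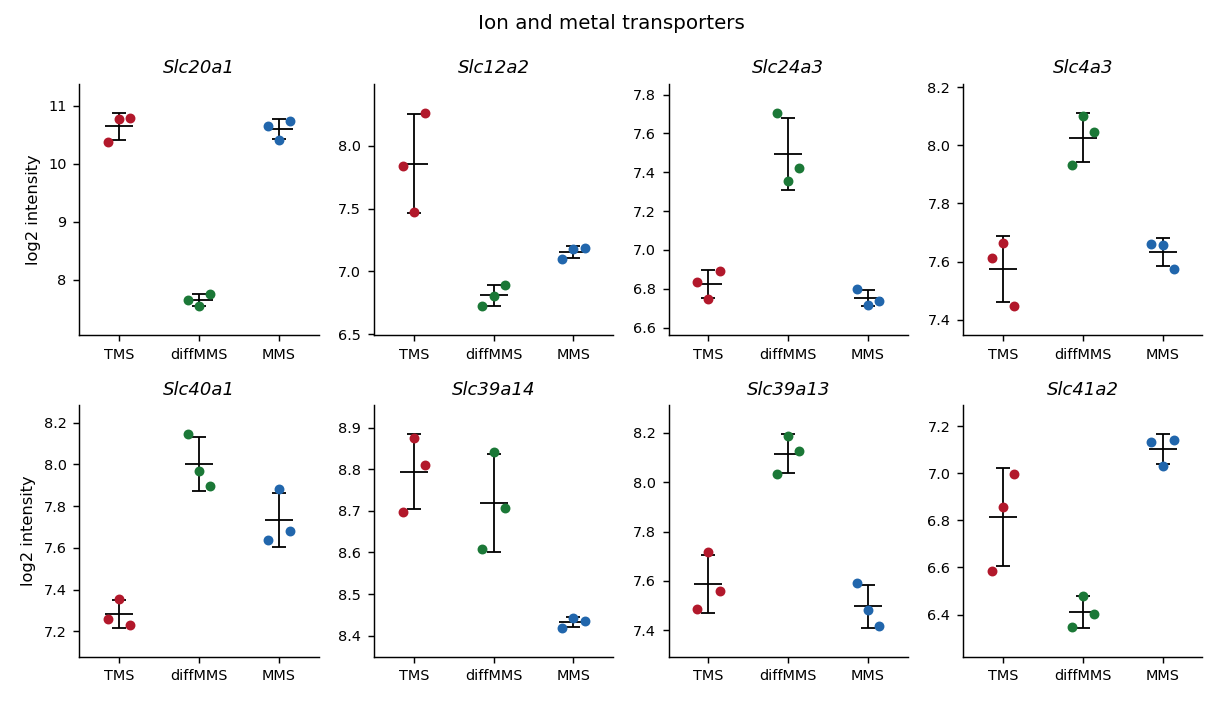
Log2 intensity (vertical axes, each panel with its own scale) of ion transporters (upper row) and metal transporters (lower row) in tumorspheres (TMS), diffMMS cultures and mammospheres (MMS), with a point for each of the 3 arrays and a bar for the mean ± SD. The diffMMS arrays of Slc20a1 lie at 7.54 to 7.75, below all others at 10.38 or more, and Slc40a1 is lowest in the tumorspheres.

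Of the 27 metal transporters, 9 were higher (33.3%, against 18.0% of all genes) and 3 lower (11.1%, against 16.1%) in diffMMS cultures than in mammospheres, with a class median of 0.15 against 0.05 over all genes. In tumorspheres 2 were higher (7.41%, against 6.21%) and 1 lower (3.70%, against 7.11%) than in mammospheres, and 1 was higher (3.70%, against 12.3%) and 4 lower (14.8%, against 12.7%) than in diffMMS cultures. Slc40a1 (ferroportin), the only known exporter of iron, had 7.26, 7.36 and 7.23 in the tumorspheres, 8.14, 7.97 and 7.89 in the diffMMS cultures and 7.64, 7.88 and 7.68 in the mammospheres. Every tumorsphere array lay below every other array, with fold changes of -0.45 against mammospheres (standard error 0.0912, adjusted p = 0.0063) and -0.72 against diffMMS cultures (adjusted p = 1.2e-04). The second probe set was called the same way in both (-0.75, adjusted p = 0.00164, and -0.60, adjusted p = 0.00332). Between diffMMS cultures and mammospheres the probe sets differed, with the first called higher in diffMMS cultures (0.27, adjusted p = 0.0404) and the second not called (-0.15, adjusted p = 0.361). That call was lost on dropping 861A, 862A, 858A or 860A, as deposited or after median centring, at adjusted p values of 0.0687 to 0.315.

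Unlike Slc40a1, the iron importers Slc11a2 and Slc39a14 were not called lower in tumorspheres than in either other group. In diffMMS cultures against mammospheres, Slc39a14 was called higher, as was the first probe set of Slc40a1. The brightest probe set of Slc11a2 (DMT1), which imports ferrous iron, was not called (-0.15, adjusted p = 0.149, for tumorspheres against diffMMS cultures and 0.15, adjusted p = 0.131, for diffMMS cultures against mammospheres). A dimmer probe set, the 1 of its 3 with the largest moderated F, gave the opposite signs and was called in both (0.42, adjusted p = 0.0149, and -0.53, adjusted p = 0.00293). Slc39a14 (ZIP14), an importer of zinc, manganese and iron, had 8.70, 8.87 and 8.81 in the tumorspheres, 8.61, 8.84 and 8.71 in the diffMMS cultures and 8.42, 8.44 and 8.44 in the mammospheres. It was called higher in tumorspheres (0.36, adjusted p = 0.0107) and diffMMS cultures (0.29, adjusted p = 0.017) than in mammospheres. The first call was lost as deposited or after median centring, at adjusted p values of 0.0809 to 0.175. The other was lost on dropping 862A, 858A or 860A, as deposited or after median centring, at adjusted p values of 0.0504 to 0.623. Its second probe set was called the same way with larger differences (0.71, adjusted p = 3.7e-04, and 0.65, adjusted p = 1.8e-04). Slc25a37 (mitoferrin-1), which brings iron into mitochondria, had 6.46, 6.64 and 6.94 in the tumorspheres, 5.76, 6.24 and 6.23 in the diffMMS cultures and 6.83, 7.13 and 6.96 in the mammospheres. It was lower in diffMMS cultures than in mammospheres (-0.90, adjusted p = 6.7e-04) and higher in tumorspheres than in diffMMS cultures (0.60, adjusted p = 0.0109).

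Other iron genes were measured beside them. Of 14 genes of iron, zinc and copper handling, 1 was higher (against 6.21% of all genes) and 2 lower (against 7.11%) in tumorspheres than in mammospheres. In tumorspheres 5 were higher (against 12.3%) and 3 lower (against 12.7%) than in diffMMS cultures. In diffMMS cultures 2 were higher (against 18.0%) and 5 lower (against 16.1%) than in mammospheres. Tfrc, the transferrin receptor, had 8.85, 7.75 and 7.70 in the tumorspheres, 6.11, 6.09 and 6.34 in the diffMMS cultures and 8.22, 8.07 and 7.72 in the mammospheres. It was lower in diffMMS cultures than in mammospheres (-1.83, adjusted p = 1.7e-04) and higher in tumorspheres than in diffMMS cultures (1.93, adjusted p = 1.4e-04). Cp, ceruloplasmin, which oxidizes the iron that ferroportin releases, had 9.42, 9.85 and 9.69 in the tumorspheres, 8.0, 7.63 and 7.78 in the diffMMS cultures and 7.02, 6.65 and 7.07 in the mammospheres. It was the 1 gene of this list that was higher in tumorspheres than in mammospheres (2.74, adjusted p = 2.5e-07).

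Among transporters of zinc, copper and magnesium, Slc39a13 (ZIP13), a zinc transporter of the Golgi and other inner membranes, had 7.49, 7.72 and 7.56 in the tumorspheres, 8.03, 8.19 and 8.12 in the diffMMS cultures and 7.59, 7.48 and 7.42 in the mammospheres. It was higher in diffMMS cultures than in mammospheres (0.62, adjusted p = 1.7e-04) and lower in tumorspheres than in diffMMS cultures (-0.53, adjusted p = 6.9e-04). Slc30a4 (ZnT4), which loads zinc into vesicles and milk, was lower in diffMMS cultures than in mammospheres (-0.45, adjusted p = 0.00155), and so was the copper importer Slc31a1 (-0.38, adjusted p = 0.0152). The call of Slc31a1 was lost on dropping 862A, 858A or 859A, at adjusted p values of 0.051 to 0.0587. Slc30a1 (ZnT1), the zinc exporter of the cell surface, was not called (-0.03, adjusted p = 0.849, for tumorspheres against mammospheres). Against diffMMS cultures tumorspheres had -0.23 (adjusted p = 0.076), called on dropping 1101A or with array weights, at adjusted p values of 0.0211 to 0.0441. The difference of diffMMS cultures from mammospheres was 0.20 (adjusted p = 0.103), called as deposited, at an adjusted p of 0.0414. The magnesium transporters Slc41a1 and Slc41a2 moved apart in diffMMS cultures against mammospheres, with Slc41a1 higher (0.43, adjusted p = 0.00163) and Slc41a2 lower (-0.69, adjusted p = 2.5e-04). Slc41a2 was higher in tumorspheres than in diffMMS cultures (0.40, adjusted p = 0.0112). Slc41a1 was also called higher in tumorspheres than in mammospheres (0.27, adjusted p = 0.044). This call was lost on dropping any array but 1101A and 861A, as deposited, after median centring or in a fit of the 2 groups alone, at adjusted p values of 0.0517 to 0.162. Centring arrays on their median reduced the difference of Slc41a1 between diffMMS cultures and mammospheres to 0.28, which was still called.

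The 33 mitochondrial carriers divided between the directions, with 6 higher (18.2%, against 18.0% of all genes) and 7 lower (21.2%, against 16.1%) in diffMMS cultures than in mammospheres. In tumorspheres 6 were higher (18.2%, against 12.3%) and 4 lower (12.1%, against 12.7%) than in diffMMS cultures, and 2 were higher (6.06%, against 6.21%) and 2 lower (6.06%, against 7.11%) than in mammospheres. The adenine nucleotide translocators, which exchange ADP for ATP, differed from each other. Slc25a5 (ANT2), the form of dividing cells, had 11.03, 11.01 and 11.17 in the tumorspheres, 10.04, 10.17 and 10.19 in the diffMMS cultures and 11.22, 11.40 and 11.27 in the mammospheres. It was 2.24-fold lower in diffMMS cultures than in mammospheres (-1.16, adjusted p = 5.3e-07) and higher in tumorspheres than in diffMMS cultures (0.94, adjusted p = 3.9e-06). Between tumorspheres and mammospheres this probe set was not called (-0.23, adjusted p = 0.0762) but was so on dropping 1101A, as deposited, after median centring, with array weights or with the probe set of the largest moderated F, at adjusted p values of 0.00637 to 0.0414. Of its 7 other probe sets 5 were called lower in tumorspheres than in mammospheres, by log2 fold changes from -1.46 to -0.30. Slc25a4 (ANT1), the form of heart and muscle, had 10.06, 10.02 and 10.05 in the tumorspheres, 10.45, 10.41 and 10.50 in the diffMMS cultures and 10.21, 10.38 and 10.33 in the mammospheres. It was lower in tumorspheres than in diffMMS cultures (-0.40, adjusted p = 0.00109) and than in mammospheres (-0.26, adjusted p = 0.0248). The call against mammospheres was lost on dropping 1100A, 859A or 860A or in a fit of the 2 groups alone, at adjusted p values of 0.0524 to 0.111. With the intensities left unnormalized its fold change was -0.44 and called. The Slc25a5 and Slc25a4 probe sets given here have the suffix x_at, by which the maker marks probes that may cross-hybridize, and these near-identical paralogs may share signal.

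Slc25a24, an ATP-magnesium/phosphate carrier, was lower in diffMMS cultures than in mammospheres (-0.90, adjusted p = 1.6e-04) and higher in tumorspheres than in diffMMS cultures (0.76, adjusted p = 6.8e-04). Its paralog Slc25a23 went the other way in the first of these (0.44, adjusted p = 0.0082) and was higher in tumorspheres than in mammospheres (0.46, adjusted p = 0.0136). The call in tumorspheres was lost on dropping 859A, at an adjusted p of 0.0675. Slc25a44, a carrier of branched-chain amino acids, was lower in tumorspheres than in mammospheres (-0.44, adjusted p = 0.00181) and diffMMS cultures (-0.30, adjusted p = 0.0095). Neither other probe set was called against mammospheres (-0.19, adjusted p = 0.193, and -0.18, adjusted p = 0.398). Against diffMMS cultures the first of them gave 0.01, adjusted p = 0.94, and the second was called lower too (-0.42, adjusted p = 0.0315). Slc25a29, which carries basic amino acids, was higher in diffMMS cultures than in mammospheres (0.49, adjusted p = 7.2e-04) and lower in tumorspheres than in diffMMS cultures (-0.26, adjusted p = 0.038). The lower call was lost on dropping any array but 1099A and 862A, as deposited, after median centring or in a fit of the 2 groups alone, at adjusted p values of 0.0569 to 0.119. The coenzyme A carrier Slc25a42 was higher in diffMMS cultures than in mammospheres (0.39, adjusted p = 0.0167) and lower in tumorspheres than in diffMMS cultures (-0.36, adjusted p = 0.0306). The higher call was lost on dropping 863A, 859A or 860A, at adjusted p values of 0.0607 to 0.0756, and the lower on dropping 1101A, 861A, 862A or 863A or as deposited, at adjusted p values of 0.0551 to 0.101. Slc25a39, a carrier of glutathione, was called higher in diffMMS cultures than in mammospheres (0.36, adjusted p = 0.00436) and in tumorspheres than in mammospheres (0.29, adjusted p = 0.032). The first call was lost as deposited or after median centring, at adjusted p values of 0.367 to 0.645. The other was lost on dropping 1100A, 1101A, 858A, 859A or 860A, as deposited, after median centring or in a fit of the 2 groups alone, at adjusted p values of 0.0647 to 0.73.

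Of the 6 nucleoside and nucleobase transporters, Slc29a1 (ENT1), the equilibrative carrier through which nucleosides and many nucleoside drugs enter cells, had 8.64, 8.16 and 8.65 in the tumorspheres, 7.25, 7.75 and 7.73 in the diffMMS cultures and 8.08, 8.14 and 8.06 in the mammospheres. It was higher in tumorspheres than in diffMMS cultures (0.91, adjusted p = 8.8e-04, standard error 0.15). It was lower in diffMMS cultures than in mammospheres (-0.52, adjusted p = 0.0195), a call lost on dropping 861A, 859A or 860A, at adjusted p values of 0.0502 to 0.0749. It was not called between tumorspheres and mammospheres (0.39, adjusted p = 0.112), where array 1100A lay at the mammosphere level. It was called on dropping 1100A, at an adjusted p of 0.0261. Slc29a3 (ENT3), the lysosomal member, was higher in diffMMS cultures than in mammospheres (0.29, adjusted p = 0.0164). This call was lost on dropping 861A, 862A or 860A, as deposited or after median centring, at adjusted p values of 0.0506 to 0.29. Slc43a3, a purine nucleobase transporter, was lower in tumorspheres (-0.30, adjusted p = 0.0354) and diffMMS cultures (-0.25, adjusted p = 0.0453) than in mammospheres. The tumorsphere call was lost on dropping 1099A, 863A, 858A or 860A, as deposited or in a fit of the 2 groups alone, at adjusted p values of 0.0501 to 0.132. The diffMMS call was lost on dropping any array but 1099A, 1101A and 859A, as deposited or after median centring, at adjusted p values of 0.0513 to 0.147. The concentrative transporter Slc28a3 was not called (0.30, adjusted p = 0.0603, for tumorspheres against mammospheres). It was called on dropping 861A or 863A, as deposited, in a fit of the 2 groups alone or with array weights, at adjusted p values of 0.0169 to 0.0435, and its second probe set gave 0.00, adjusted p = 0.993.

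Creatine and choline transport gave 2 of the larger differences. Slc6a8, the creatine transporter, had 9.71, 9.75 and 10.22 in the tumorspheres, 8.81, 8.69 and 8.56 in the diffMMS cultures and 9.62, 9.52 and 9.45 in the mammospheres. It was 2.31-fold higher in tumorspheres than in diffMMS cultures (1.21, adjusted p = 2.3e-05, standard error 0.125) and lower in diffMMS cultures than in mammospheres (-0.84, adjusted p = 3.2e-04), and a second probe set was called the same way in both. Slc44a2, of the choline transporter-like family, had the reverse pattern with 8.03, 8.12 and 8.21 in the tumorspheres, 9.01, 9.28 and 9.19 in the diffMMS cultures and 8.12, 8.10 and 8.14 in the mammospheres. It was 2.06-fold higher in diffMMS cultures than in mammospheres (1.04, adjusted p = 2.3e-06) and lower in tumorspheres than in diffMMS cultures (-1.04, adjusted p = 2.7e-06), and all 3 of its probe sets were called in these directions. Slc44a1, a choline transporter of the same family, was higher in diffMMS cultures (0.45, adjusted p = 9.9e-04) and tumorspheres (0.32, adjusted p = 0.0181) than in mammospheres. The call for tumorspheres was lost on dropping 858A or 860A or after median centring, at adjusted p values of 0.0654 to 0.0862. The dim Slc44a3 was higher in tumorspheres than in mammospheres (0.34, adjusted p = 0.00474), and a pseudocount of 32 reduced this to 0.19. Slc27a3, of the fatty acid transport family, was lower in tumorspheres than in diffMMS cultures (-0.31, adjusted p = 0.0457). This call was lost on dropping any array but 1099A and 861A, as deposited, after median centring or in a fit of the 2 groups alone, at adjusted p values of 0.0532 to 0.164.

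Of the 26 transporters of organic anions and cations, limma called 6 higher (23.1%, against 18.0% of all genes) and 0 lower (against 16.1%) in diffMMS cultures than in mammospheres, with 1 lower at an unadjusted p under 0.05. Slc10a6, a transporter of sulfated steroids, had 7.17, 7.37 and 7.09 in the tumorspheres, 8.10, 8.02 and 8.04 in the diffMMS cultures and 7.36, 7.14 and 7.34 in the mammospheres. It was higher in diffMMS cultures than in mammospheres (0.77, adjusted p = 5.3e-05) and lower in tumorspheres than in diffMMS cultures (-0.84, adjusted p = 3.2e-05). Slc22a23, an orphan member of family 22, was higher in tumorspheres than in mammospheres (0.60, adjusted p = 0.00236) and diffMMS cultures (0.51, adjusted p = 0.00321). Slc22a18 was higher in diffMMS cultures than in mammospheres (0.34, adjusted p = 0.0243). Its call was lost on dropping 861A, 859A or 860A or after median centring, at adjusted p values of 0.0598 to 0.0922. The rodent gene Slc22a26 was lower in tumorspheres than in diffMMS cultures (-0.48, adjusted p = 2.8e-04). Against mammospheres it was lower in tumorspheres (-0.24, adjusted p = 0.0357) and higher in diffMMS cultures (0.24, adjusted p = 0.0178). The tumorsphere call was lost on dropping 1099A, 1101A, 858A, 859A or 860A or as deposited, at adjusted p values of 0.071 to 0.127, and the diffMMS call on dropping 859A or 860A, at adjusted p values of 0.0586 to 0.0629. Its second probe set was called in none of the 3 comparisons, with -0.00, adjusted p = 0.983, for tumorspheres against diffMMS cultures. The organic anion transporting polypeptides, a sister group under the symbol Slco, included Slco2a1, the prostaglandin transporter, with 10.16, 10.06 and 9.88 in the tumorspheres, 7.22, 6.90 and 6.85 in the diffMMS cultures and 9.47, 9.50 and 9.52 in the mammospheres. Of these 11 genes, 1 was higher in tumorspheres than in mammospheres (against 6.21% of all genes). In tumorspheres 3 were higher (against 12.3%) and 1 lower (against 12.7%) than in diffMMS cultures. In diffMMS cultures 1, Slco2a1, was lower (against 16.1%) than in mammospheres (-2.51, adjusted p = 9.5e-09).

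The remaining classes were small and their differences slight. Slc35a1, which brings CMP-sialic acid into the Golgi, was higher in tumorspheres than in diffMMS cultures (0.37, adjusted p = 0.0121) and lower in diffMMS cultures than in mammospheres (-0.43, adjusted p = 0.00443). The UDP-galactose transporter Slc35a2, needed for lactose synthesis, was higher in diffMMS cultures than in mammospheres (0.25, adjusted p = 0.0144) and lower in tumorspheres than in diffMMS cultures (-0.24, adjusted p = 0.0228). The higher call was lost on dropping 860A, as deposited or after median centring, at adjusted p values of 0.0537 to 0.33. The lower call was lost on dropping 1100A, 861A or 863A, as deposited, after median centring or in a fit of the 2 groups alone, at adjusted p values of 0.053 to 0.136. Slc35a5 was lower in tumorspheres than in diffMMS cultures (-0.26, adjusted p = 0.0279), a call lost on dropping 1101A, 861A or 863A or in a fit of the 2 groups alone, at adjusted p values of 0.0642 to 0.0945. The acetyl-CoA transporter Slc33a1 was lower in tumorspheres than in mammospheres (-0.33, adjusted p = 0.0415). Its call was lost on dropping any array but 1101A and 861A, as deposited, in a fit of the 2 groups alone or without the intensity trend, at adjusted p values of 0.0523 to 0.168, and a pseudocount of 32 reduced the difference to -0.22.

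Among 9 vitamin transporters, 0 were called between tumorspheres and mammospheres, where limma gave 1 at an unadjusted p under 0.05. Of all genes, 6.21% were called higher and 7.11% lower there, so that 0 of so few genes says little of the class. The riboflavin transporter Slc52a3 was higher in diffMMS cultures than in mammospheres (0.40, adjusted p = 0.00792) and lower in tumorspheres than in diffMMS cultures (-0.35, adjusted p = 0.0215), and the second call was lost on dropping 1101A or 861A or in a fit of the 2 groups alone, at adjusted p values of 0.0571 to 0.0702. The thiamine transporter Slc19a2 was lower in diffMMS cultures than in mammospheres (-0.38, adjusted p = 0.00341). In tumorspheres against mammospheres it was the 1 at an unadjusted p under 0.05 (-0.24, adjusted p = 0.0684). That difference was called as deposited, after median centring or without the intensity trend, at adjusted p values of 0.0235 to 0.0495. Its second probe set gave -0.11, adjusted p = 0.427, there. Of 10 neurotransmitter and amine transporters, the serotonin transporter Slc6a4 was lower in tumorspheres than in diffMMS cultures (-0.33, adjusted p = 0.00772) and higher in diffMMS cultures than in mammospheres (0.25, adjusted p = 0.0257). The vesicular glutamate transporter Slc17a6 was higher in diffMMS cultures than in mammospheres as well (0.19, adjusted p = 0.019). The higher call of Slc6a4 was lost on dropping 861A, 863A, 859A or 860A, at adjusted p values of 0.0616 to 0.111, and that of Slc17a6 on dropping 863A or 858A, at adjusted p values of 0.0623 to 0.0827.

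Of the called members with several probe sets, a second was called the same way for 8 of 13 between tumorspheres and mammospheres, for 21 of 33 between tumorspheres and diffMMS cultures and for 22 of 38 between diffMMS cultures and mammospheres. Among the genes named above, no other probe set was called the same way between tumorspheres and mammospheres for Slc22a26, Slc25a44, Slc2a1, Slc44a1 and Slc45a3, between tumorspheres and diffMMS cultures for Slc12a7, Slc22a26, Slc25a29, Slc2a1, Slc35a5, Slc45a2 and Slc6a9 or between diffMMS cultures and mammospheres for Slc17a6, Slc22a18, Slc22a26, Slc31a1, Slc40a1, Slc45a2, Slc45a3, Slc5a2, Slc6a6 and Slc7a6. A probe set called the opposite way was found for 2 members, Slc6a6 and the magnesium transporter Slc41a3, both between diffMMS cultures and mammospheres. Conversely, 11 members without a call between tumorspheres and mammospheres had another probe set that was called, as had 11 between tumorspheres and diffMMS cultures and 13 between diffMMS cultures and mammospheres.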

How the data were processed

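RNA of 9 arrays (3 per group) was analysed. The authors deposited 1 table of MOE430A intensity values on a linear scale, 1 column per array; the paper names GeneSpring, and the summary and scaling method is not given in the sources used here. Of 22690 probe sets, 64 controls were left out. By the platform annotation 20380 of the others have 1 gene symbol, 691 have several and 1555 have none; 3 probe sets with several symbols that include a solute carrier were left out, and all 238 members matched RefSeq by Entrez identifier, with 0 symbols changed. Array medians were 84.0 to 88.6, and quartiles differed by up to 0.163 (log2). The log2 of intensity plus 8.67 (10% of the median of all values) was quantile normalized. A model of the 3 group means was fitted in limma (version 3.58.1, under R 4.3.3) with lmFit and eBayes with an intensity trend, on 9 arrays and 6 residual degrees of freedom, with two-sided p values adjusted by Benjamini-Hochberg over 22626 probe sets and a threshold of 0.05. As nothing in the labels pairs samples or gives a batch, no block was fitted, and p values measure the spread between these preparations. The precision is limited by 3 arrays per group.

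Named genes comprise the 8 members with the highest and the 8 with the lowest fold change of each comparison, if called and with no overlap of the groups, per class the 2 largest in each direction among called members, and 22 transporters in every case, of which 21 were measured (70 genes in all). Substrate classes follow family numbers with exceptions by gene. The members, lists and classes were chosen with earlier results of these data known. A marker list's summed level is the log2 of its added normalized intensities. Promoters came from RefSeq (GRCm38.p6). Counts and plots used Python 3.11.15, pandas 2.3.3 and matplotlib 3.10.9.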

Additional observations from a re-analysis of the deposited data

How the results depend on the processing

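Counts between tumorspheres and mammospheres were the least stable. For the 16 higher members, array weights gave 33, arrays centred on their median 11, a threshold of 0.01 gave 7 and leaving out 1 array gave 9 to 21. For the 9 lower members, arrays centred on their median gave 15, array weights 19, only the 2 groups compared 5, a threshold of 0.01 gave 4 and leaving out 1 array gave 5 to 14. For the 36 members lower in tumorspheres than in diffMMS cultures, only the 2 groups compared gave 22 and a threshold of 0.01 gave 18, and leaving out 1 array gave 25 to 38. For the 49 members higher in diffMMS cultures than in mammospheres, a threshold of 0.01 gave 24 and leaving out 1 array gave 29 to 59. The 24 higher than diffMMS cultures and the 22 lower than mammospheres stayed within 1.5 times under every setting run, with 21 to 26 and 18 to 26 when 1 array was left out. Of 114 calls of named genes, 75 were kept under all settings run (18 or 19 a gene) and 39 were lost under at least 1, and of their 96 differences without a call 39 gained one under at least 1. With the probe set of the largest moderated F, Slc11a2 reversed to 0.42 for tumorspheres against diffMMS cultures and to -0.53 for diffMMS cultures against mammospheres. The cause of these changes was not tested, apart from fewer arrays or a stricter threshold where those were the setting. No paired analysis was possible because the labels carry no replicate numbers or pairing.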
